A study of Mus musculus with 23 samples.

Results

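Kupffer cells, the macrophages that live inside the liver sinusoids, carried open chromatin at 4025 regions that neither blood monocytes nor newly recruited liver macrophages had opened by 48 h of repopulation. ATAC-seq inserts sequencing adapters where chromatin is accessible, and a region was called open in a library where it overlapped a deposited peak. The 4025 regions were chosen from 155137 merged mouse regions on the autosomes and the X chromosome (2.59%). Each had a peak in both libraries of Kupffer cells from PBS-treated mice, in neither library of blood Ly6c-high monocytes and in none of the 5 libraries of repopulating liver macrophages (labelled RLM; 3 at 24 h and 2 at 48 h after diphtheria toxin). They made up 31.8% of the 12645 regions with a peak in both PBS Kupffer libraries and in neither monocyte library, which are called Kupffer-gained here. Of the other Kupffer-gained regions, 5257 had a peak in at least 1 library at 24 h and 3363 had their first peak at 48 h. These 9 libraries chose the regions, so their values are a description and carry no test. They are called RLM-closed regions below, in the sense that no peak was called there up to 48 h: 732 of the 4025 (18.2%) had a repopulating macrophage peak within 1 kb.

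The PBS Kupffer cells and the repopulating macrophages came from Clec4f-cre/Rosa26iDTR mice, in which Cre driven by the Kupffer cell gene Clec4f switches on a diphtheria toxin receptor, so that toxin removes Kupffer cells and opens their niche to incoming monocytes. The monocytes came from untreated C57BL/6J mice. The 14 libraries that the rule did not use were 7 groups of 2. Kupffer cells of untreated Nr1h3 flox/flox mice sorted as TIM4-positive were the Nr1h3 controls, and Kupffer cells of untreated Nr1h3 flox/flox Clec4f-cre +/- mice (Nr1h3 KO) were sorted as TIM4-positive or TIM4-negative. Untreated Kupffer cells of a Smad4 experiment were titled Smad4KO or Control, and C57BL/6J bone marrow-derived macrophages (BMDM) cultured for 4 days were left untreated or given the Notch ligand DLL4 for 24 h. In the Smad4 experiment the titles and the strain labels give opposite genotypes: the libraries titled Smad4KO are labelled Smad4 flox/flox and those titled Control are labelled Smad4 flox/flox Clec4f-cre +/-. Groups are called by their titles here, and the strain labels would turn every Smad4 direction given below. In both floxed lines Cre acts only in cells that use the Clec4f promoter. The titles of the monocyte, PBS and repopulation libraries carry different mouse numbers, but the labels do not state which of the other 14 libraries came from separate animals, so p-values measure the spread between libraries, which may be technical.

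Kupffer cell identity is built on enhancers, stretches of open chromatin at which macrophage factors such as PU.1 meet factors that respond to the liver. Nr1h3 encodes LXR-alpha, a nuclear receptor activated by oxysterols, SMAD4 carries TGF-beta and BMP signals into the nucleus, and DLL4 on sinusoidal endothelium activates Notch and its DNA-binding partner RBPJ. TIM4, the product of Timd4, is a phosphatidylserine receptor for dying cells that long-lived Kupffer cells carry and recently recruited ones acquire late.

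Of the RLM-closed regions, 108 overlapped a RefSeq promoter window (250 bases before to 50 after a gene's start, GRCm38.p6), and 6 of the genes concerned were on a list of 26 Kupffer cell identity genes: Timd4, Marco, C6, Pcolce2, Clec4f and Vsig4. The stretch upstream of the start that lies inside the region is shown for 5 of them, because these are the member regions that sit at the start of a gene by which Kupffer cells are recognised. The Marco region lies downstream of the start. Timd4 is at chr11:46810549-46810798 (plus strand), Clec4f at chr6:83656117-83656288 (minus strand), C6 at chr15:4726960-4727175 (plus strand), Vsig4 at chrX:96293439-96293660 (minus strand) and Pcolce2 at chr9:95637468-95637627 (plus strand). Capitals mark matches, on either strand, to 7 short motifs: AGGTCA (nuclear receptor hexamer), GGAAGT (ETS core), TGCTGA (MAF core), CAGACA (SMAD element), CACGTG (E-box), TGGGAA (RBPJ core) and TGANTCA (AP-1).
Timd4: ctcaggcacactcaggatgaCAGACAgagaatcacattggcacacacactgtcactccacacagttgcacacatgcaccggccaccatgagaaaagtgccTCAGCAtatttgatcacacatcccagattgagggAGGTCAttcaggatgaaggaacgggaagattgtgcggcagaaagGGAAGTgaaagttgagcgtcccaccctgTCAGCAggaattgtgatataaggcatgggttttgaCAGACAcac
Clec4f: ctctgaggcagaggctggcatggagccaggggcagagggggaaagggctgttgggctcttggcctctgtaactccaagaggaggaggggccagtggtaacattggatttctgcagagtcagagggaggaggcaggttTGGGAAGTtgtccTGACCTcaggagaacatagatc
C6: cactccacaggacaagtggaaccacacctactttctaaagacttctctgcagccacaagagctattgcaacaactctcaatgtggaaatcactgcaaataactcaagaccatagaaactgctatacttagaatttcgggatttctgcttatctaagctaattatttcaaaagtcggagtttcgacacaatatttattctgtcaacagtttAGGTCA
Vsig4: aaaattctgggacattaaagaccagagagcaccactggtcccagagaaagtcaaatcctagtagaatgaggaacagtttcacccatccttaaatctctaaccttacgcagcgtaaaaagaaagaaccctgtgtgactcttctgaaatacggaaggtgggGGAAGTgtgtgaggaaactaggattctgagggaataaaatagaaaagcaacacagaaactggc
Pcolce2: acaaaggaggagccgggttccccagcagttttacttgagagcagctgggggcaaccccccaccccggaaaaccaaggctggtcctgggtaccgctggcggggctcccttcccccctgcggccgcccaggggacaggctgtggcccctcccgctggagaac
The Timd4 stretch held 1 nuclear receptor hexamer, 1 ETS core, 2 MAF cores and 2 SMAD elements. Clec4f held 1 RBPJ core and 1 ETS core, which overlap, and 1 nuclear receptor hexamer. C6 held 1 nuclear receptor hexamer, Vsig4 held 1 ETS core, and Pcolce2 held none of the 7. Such letters are common: over the 250 upstream bases of all 32619 promoters in the table, AGGTCA was found in 14.1%, GGAAGT in 19.8%, TGCTGA in 16.1%, CAGACA in 16.9%, CACGTG in 6.06%, TGGGAA in 21.7% and TGANTCA in 6.78%, and the stretches shown are as long or shorter.

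Signal values are HOMER normalised tag counts, the tags in a peak scaled to 10000000 tags in the library. The 23 libraries held 10431396 to 18358419 tags, with 15.4% to 54.7% of them in peaks and 48775 to 104206 peaks each. The share of tags in peaks differed between groups: it was 33.35% and 25.98% in the Nr1h3 controls, 21.9% and 26.6% in TIM4-positive Nr1h3 KO cells, 43.8% and 41.3% in TIM4-negative Nr1h3 KO cells, 15.4% and 19.6% in titled Smad4 KO cells, 19.5% and 25.2% in titled controls, and 48.3% to 54.7% in BMDM. Of 470 regions nearest to the Kupffer identity genes, 240 and 252 had a peak in the PBS Kupffer libraries and 107 and 124 in monocytes, while regions nearest to 20 monocyte genes ran the other way (74 and 81 against 129 and 135 of 249).

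The RLM-closed regions were modest in height. Their mean signal in the 2 PBS Kupffer libraries had a median of 17.7 (range 7.62 to 244), against 19.6 for regions first open at 48 h and 25.8 for those open at 24 h. Just outside the rule were 1808 regions excluded by a peak in 1 of the 5 repopulating macrophage libraries, with a median PBS signal of 18.2 and a median signal of 11.3 in that library. Another 4757 regions were outside because only 1 of the 2 PBS libraries had a peak, with a median signal of 11.5 there. Without PBS Kupffer library 1 the rule would hold for 6504 regions, and without library 2 for 6303.

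They also lay farther from gene starts than the other Kupffer-gained regions. Over the chromosomes with start sites in the promoter table (all but chromosome 18), the median distance to a start was 31.1 kb, against 22.9 kb for regions first open at 48 h, 18.96 kb for those open at 24 h and 16.2 kb for all regions. A start lay within 1 kb of 5.93% of them, against 6.50%, 11.1% and 14.7%. A protein-coding gene body lay within 50 kb of 76.2%, and 52.1% were inside one. Another RLM-closed region lay within 10 kb of 31.1%. Another region of the same class did so for 22.1% of the 5257 regions of the 24 h set, 18.97% of the 3363 of the 48 h set, 32.2% of these 8620 together and 89.6% of all regions, a share that depends on the number of regions in the class. Chained at up to 50 kb they formed 2599 loci, of which 16 held at least 8 RLM-closed regions and together held 161 of them.

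Assigned to the nearest gene body within 50 kb, the RLM-closed regions fell at 1888 genes, 12 of which had 10 or more. Many of the leading genes are long and are best known outside macrophages. Dlgap2, a synaptic scaffold gene, led with 16 of its 18 Kupffer-gained regions, followed by the adhesion gene Tenm2 with 15 of 16 and by Timd4 with 14 of 14. At Klhl29 all 13 Kupffer-gained regions were RLM-closed, as were all 12 at Sgcd, which encodes delta-sarcoglycan, all 10 at the ciliary gene Hydin, all 9 at Nos1, the neuronal nitric oxide synthase gene, and all 9 at Plpp4. By contrast the receptor phosphatase gene Ptprm had 13 RLM-closed regions of 24, the transcription factor gene Zfhx3 10 of 21, and the integrin gene Itga9 only 1 of 21. The genes differ in length: Dlgap2 spans 758 kb and Tenm2 1230 kb, but Timd4 spans 33.5 kb and Nos1 92.0 kb. Cdk14 had 11 RLM-closed regions, Ank2, Dlc1 and Zbtb7c had 10 each, and Tcim had 9.

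**Figure D1:**
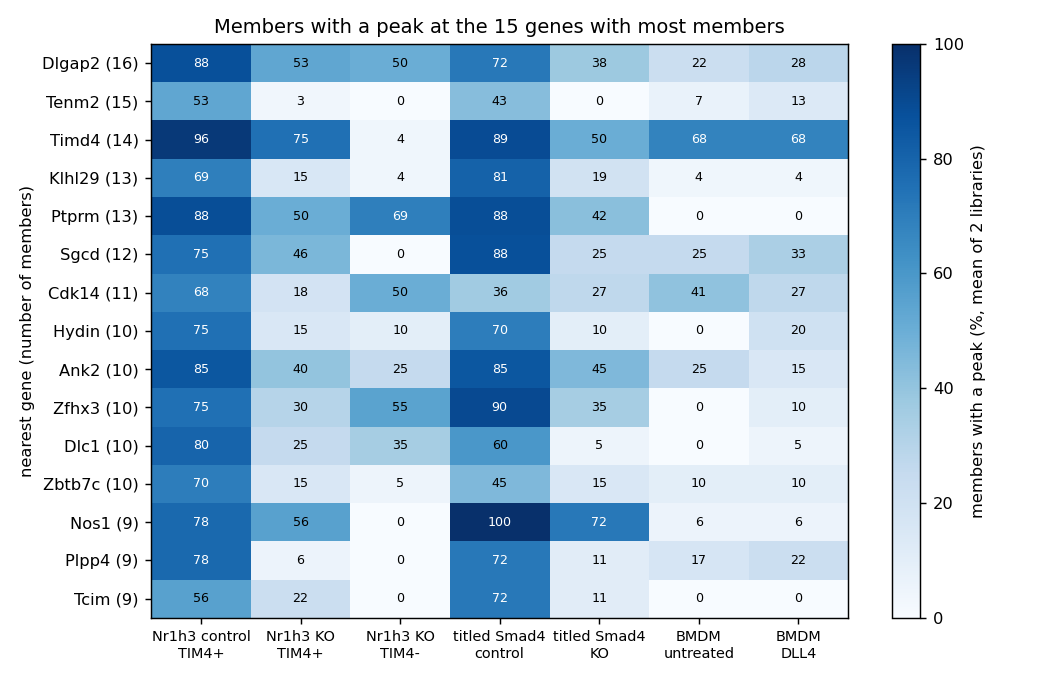
Share of RLM-closed regions with a peak (percent, mean of 2 libraries) at the 15 genes with most of them (rows, number of regions in brackets) in the 7 groups the rule did not use (columns). By the mean of 2 libraries, Nr1h3 controls carried most of them at each gene. Titled Smad4 controls did so except at Tenm2 (6 and 7 of 15), Cdk14 (5 and 3 of 11) and Zbtb7c (4 and 5 of 10). TIM4-negative Nr1h3 KO cells had none at Tenm2, Sgcd, Nos1, Plpp4 and Tcim.

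Among the RLM-closed regions assigned to a gene, 11 of the 12 with the highest PBS signal lay inside the gene body. A region in Cntnap2, a neurexin family adhesion gene (chr6:46450441-46450724), had a signal of 237 and 232 in the PBS Kupffer libraries and 89.7 and 89.8 in the Nr1h3 controls. Its signal was 33.8 and 56.0 in TIM4-positive and 16.5 and 9.26 in TIM4-negative Nr1h3 KO cells, 54.5 and 57.9 in titled Smad4 controls and 16.7 and 19.2 in titled Smad4 KO cells, with no peak in any BMDM library. Every control library was thus above every knockout library except TIM4-positive library 2, which stood between the Smad4 titled controls and was below both Nr1h3 controls. At Magi2, a membrane scaffold gene (chr5:19666514-19666827), the signal was 191 and 226 in PBS cells, 106 and 88.5 in Nr1h3 controls, 12.8 and 20.5 in TIM4-positive KO cells, and TIM4-negative KO cells had no peak. A region in Sgcd (chr11:47063767-47064101) ran from 207 and 215 in PBS cells to 85.6 and 69.3 in Nr1h3 controls, 40.2 and 46.4 in TIM4-positive KO cells and no peak in TIM4-negative ones. The knockout values were below the controls' in both of these regions. The PBS values are the ones that ranked these regions, so that they exceed the control values is partly set by the choice. Adhfe1 (chr1:9547930-9548229) kept a signal of 76.6 and 71.4 in TIM4-negative and 80.4 and 94.2 in TIM4-positive KO cells beside 145 and 98.4 in the Nr1h3 controls. Fat3, a protocadherin gene (chr9:16046752-16046999), was high in BMDM as well, at 115, 98.1, 84.3 and 97.8 beside 192 and 121 in PBS cells.

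On the list of 26 Kupffer identity genes, 15 had 41 RLM-closed regions, 32.5% of the list's 126 Kupffer-gained regions, beside 29.4% over all genes. All 14 Kupffer-gained regions at Timd4 were among the 41, so the list's share rests in part on that gene. Timd4 held 14, Pcolce2 5, Paqr9 4, Clec4f 3, Cd5l, C6, Marco and Kcna2 2 each, and Xdh, Cdh5, Clec1b, Spic, Slc40a1, Vsig4 and Itga9 1 each. The Nr1h3 controls had a peak at 40 and 34 of the 41 and the titled Smad4 controls at 33 and 37. TIM4-positive Nr1h3 KO cells had 24 and 27, TIM4-negative ones 18 and 16, and titled Smad4 KO cells 17 and 28. BMDM had 10 to 13, most of them at Timd4: outside Timd4 they had 1 to 3 of 27. Every control library was above every knockout library.

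Timd4 was in the locus with most RLM-closed regions. With its neighbour Havcr1, which encodes a related receptor, the locus held 20 RLM-closed regions in 186 kb, and none of its other 9 regions was Kupffer-gained. The 14 regions assigned to Timd4 run from 14950 bp before the gene to 65.0 kb downstream of its start. The promoter region shown above (chr11:46810540-46810965) had a signal of 84.4 and 76.7 in PBS Kupffer cells, 67.7 and 48.2 in Nr1h3 controls and 39.6 and 52.6 in TIM4-positive Nr1h3 KO cells, and no peak in either TIM4-negative library. It had 41.2 and 53.0 in titled Smad4 controls, 14.5 and 27.3 in titled Smad4 KO cells, and 60.2, 48.2, 53.8 and 59.5 in the untreated and DLL4-treated BMDM. TIM4-positive KO libraries overlapped their controls, and the 4 BMDM libraries lay within the range of the 4 Kupffer control libraries. Of the 14 regions, the Nr1h3 controls had 14 and 13, TIM4-positive KO cells 11 and 10, TIM4-negative KO cells 1 and 0, titled Smad4 controls 13 and 12, titled Smad4 KO cells 4 and 10, and BMDM 8 to 11. The TIM4-negative cells were sorted for lack of the Timd4 product, so their values at Timd4 are tied to the gate.

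**Figure D2:**
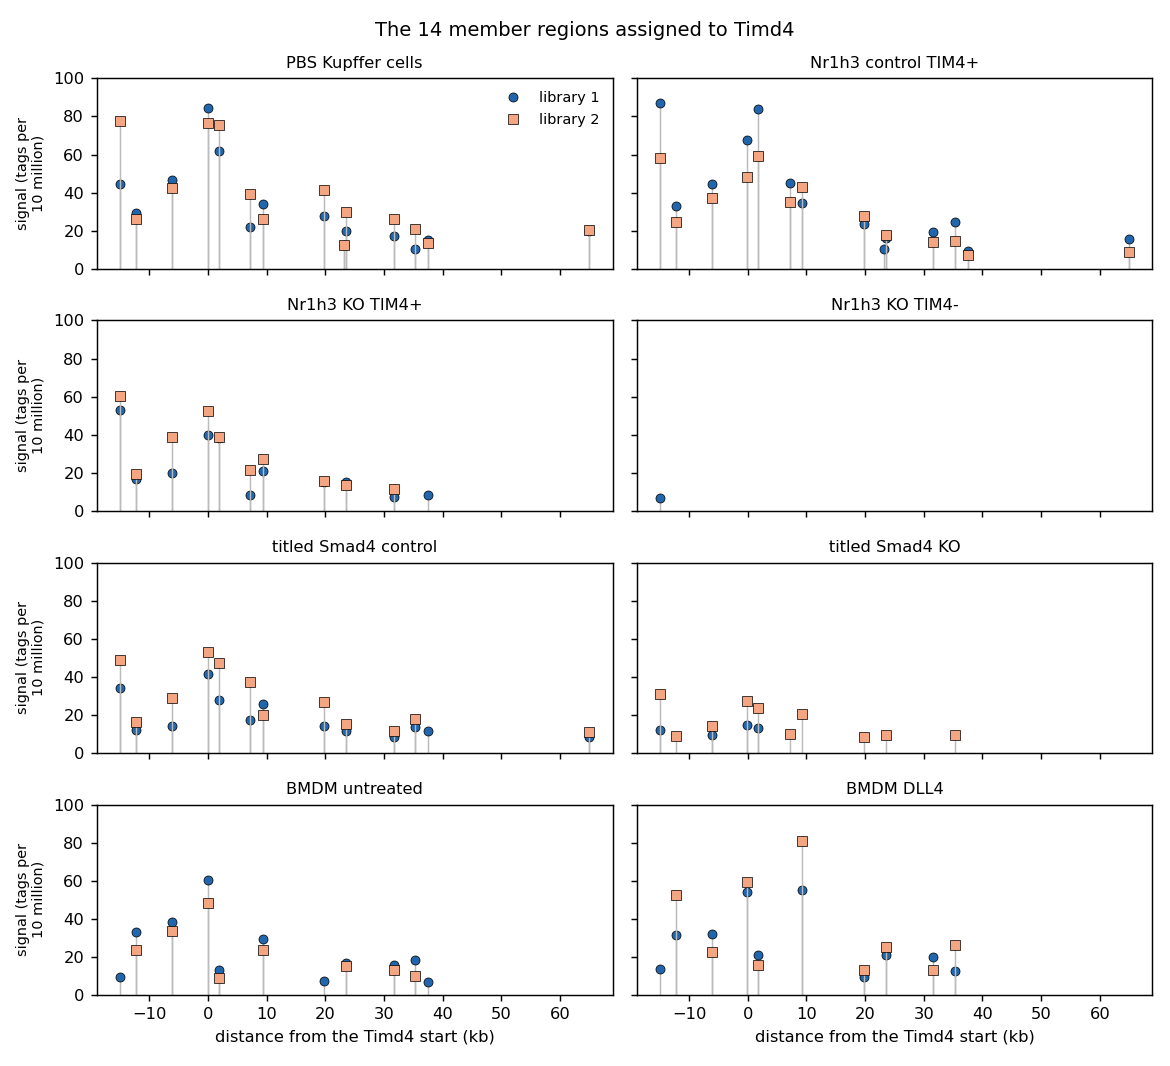
Signal (tags per 10000000 tags) at the 14 RLM-closed regions of Timd4 by distance from its start (kb), in PBS Kupffer cells, which chose the regions, and in 7 further groups, with 1 marker per library and no marker where no peak was called. TIM4-negative Nr1h3 KO cells have 1 peak in all, while BMDM have 8 to 11 in each library.

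Other identity genes differed in whether BMDM had a peak. Clec4f, the C-type lectin gene that defines Kupffer cells in the mouse, had 3 RLM-closed regions, and none had a peak in BMDM. The region 18.3 kb from its start (chr6:83637708-83637963) had a signal of 30.3 and 34.5 in PBS cells and 70.6 and 64.0 in Nr1h3 controls, and of 36.4, 34.8, 34.8 and 49.0 in the 4 Nr1h3 KO libraries. In titled Smad4 KO cells it had 10.0 in 1 library and no peak in the other, against 30.9 and 38.3 in titled controls. All 3 regions had a peak in all 4 Nr1h3 KO libraries, but in each titled Smad4 KO library only 1 of 3 did. C6, a complement gene, kept both regions in all 4 Nr1h3 KO and both titled Smad4 KO libraries, the one inside the gene (chr15:4734186-4734511) at 72.3 and 60.1 in Nr1h3 controls, 38.3 and 36.9 in TIM4-positive KO cells and 37.1 and 25.1 in TIM4-negative ones. Cd5l encodes a secreted scavenger protein and is a known LXR target. Its region 1.04 kb from a gene start (chr3:87356689-87356998) had 41.1 and 37.0 in Nr1h3 controls, a peak in 1 of 2 libraries of each Nr1h3 KO group (13 and 8.25) and 17.4 in 1 titled Smad4 KO library. Its other region (chr3:87349721-87350033) had 23.7 and 23.1 in Nr1h3 controls and no peak in any other outside library. A region 3634 bp from Paqr9 (chr9:95571528-95571785) had 53.8 and 47.5 in Nr1h3 controls, 30.3 and 42.1 in titled Smad4 controls and 23.4 and 31.6 in titled Smad4 KO cells, and no peak in the 4 Nr1h3 KO libraries. The Marco region near the start of this scavenger receptor gene was high in BMDM (46.7, 58.7, 64.0 and 54.7) and lower in Nr1h3 controls (24.3 and 21.8). PBS Kupffer cells had 42.7 and 43.1 there, closer to BMDM than the Nr1h3 controls were. The regions at Clec1b and at Spic, the factor gene of heme-handling macrophages, had no peak in any of the 6 knockout libraries, but in the Nr1h3 controls only library 1 had them. The Spic region had a peak in both DLL4-treated BMDM libraries (15.3 and 21.9) and in neither untreated one. Lacking untreated peaks, it could not be tested for a change in signal, and regions with this or the opposite pattern were not counted.

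Across the libraries outside the rule, Kupffer cells kept the RLM-closed regions far more often than the knockout cells or BMDM did. A peak was called at 74.8% and 64.0% of them in the Nr1h3 controls and at 63.9% and 69.8% in the titled Smad4 controls. The share was 25.0% and 34.5% in TIM4-positive Nr1h3 KO cells, 35.4% and 33.7% in TIM4-negative ones and 18.7% and 33.5% in titled Smad4 KO cells. It was 26.6% and 17.3% in untreated and 25.0% and 24.5% in DLL4-treated BMDM. The 4 control libraries averaged 68.1% ± 5.22 (SD, n = 4) and the 4 BMDM libraries 23.3% ± 4.14 (SD, n = 4), with no overlap (two-sided exact permutation test, p = 0.0286, the smallest p that 4 against 4 can give). The rule asked for peaks in PBS Kupffer cells and for none in monocytes or repopulating macrophages, so it bears on the direction of this gap. The p-value measures the spread between libraries and is no independent support for that direction. With the Smad4 libraries grouped by the strain labels the 4 controls averaged 47.7% ± 26.1 (SD, n = 4) and overlapped BMDM, with a gap of 24.4 points (exact permutation p = 0.114). The Nr1h3 controls alone were 46.0 points above BMDM (exact permutation p = 0.133, the smallest that 2 against 4 can give). Over Kupffer-gained regions that had opened by 48 h, the same libraries averaged 83.1% ± 3.83 (SD, n = 4) and 65.3% ± 5.51 (SD, n = 4). The gap was 44.8 percentage points for the RLM-closed regions and 17.8 for the opened ones, and the difference of 27.0 points between the gaps had an exact permutation p of 0.0286, again the smallest possible. By the strain labels the difference was 15.3 points (exact permutation p = 0.0286). The opened class was chosen for a peak in repopulating macrophages and the RLM-closed class for none. The rule thus bears on the direction of both differences, which are a description, and their p-values are no independent support. BMDM libraries had more peaks in all than the control libraries (85563 to 104206 against 58395 to 67555). Culture, cell origin and strain differ together between these groups and cannot be told apart.

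In each of the 14 outside libraries the RLM-closed regions had a peak less often than the opened Kupffer-gained regions. The difference averaged -33.5 points (SD 12.7, n = 14), ran from -47.5 to -12.99, and was negative in 14 of 14 libraries. It is a description: the opened class was chosen for having a further peak, so the rule bears on its direction. It was smallest in control Kupffer cells. RLM-closed regions also had lower PBS signals, and in control Kupffer cells the share was higher where the PBS signal was higher. Among RLM-closed regions with a PBS signal of 30 or more, the Nr1h3 controls had a peak at 92.9% and the titled Smad4 controls at 89.3%, but among those under 15 at 47.9% and 48.4%. In untreated BMDM the share was 21.2% and 24.9% in the same 2 bins.

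In the knockout contrasts, 2 libraries against 2 cannot give an exact permutation p under 0.33. TIM4-positive Nr1h3 KO cells had a mean share of 29.7% ± 6.71 (SD, n = 2) against 69.4% ± 7.61 (SD, n = 2) in their controls, a difference of -39.6 points. TIM4-negative ones differed from the same controls by -34.8 points at 34.6% ± 1.19 (SD, n = 2), and the titled Smad4 KO cells, at 26.1% ± 10.5 (SD, n = 2), differed by -40.8 points from 66.9% ± 4.18 (SD, n = 2). These 3 differences had an exact permutation p of 0.33 each, and their libraries did not overlap. With the peak lists reduced to equal length the differences were -21.3, -33.7 and -24.4 points, while the gap between controls and BMDM was 53.6 points. Over opened Kupffer-gained regions the 3 differences were -19.1, -2.74 and -17.5 points. TIM4-negative cells carried regions opened by 48 h at 81.6% ± 0.42 (SD, n = 2) beside 84.3% ± 4.88 (SD, n = 2) in controls, and the gap between the RLM-closed and the opened difference was -32.1 points (exact permutation p = 0.33). Both Nr1h3 KO groups are compared with the same 2 control libraries, and the controls were TIM4-positive, so for TIM4-negative cells the genotype and the gate cannot be told apart.

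**Figure D3:**
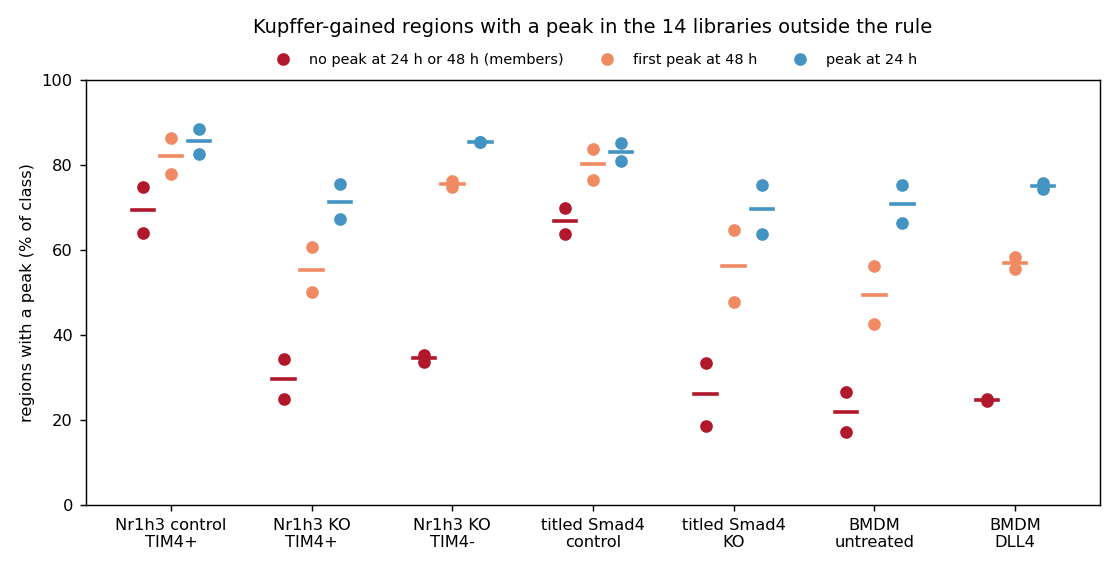
Share of regions with a peak (percent of class) in each of the 14 libraries the rule did not use, for Kupffer-gained regions with no peak at 24 h or 48 h, with the first peak at 48 h, and with a peak at 24 h (points are libraries, bars are means of 2). The RLM-closed regions lie lowest in each library, and lie between 17.3% and 35.4% in all knockout and BMDM libraries.

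Counting region by region gave the same picture. Of 2363 RLM-closed regions with a peak in both Nr1h3 controls, 1072 (45.4%) had none in either TIM4-positive Nr1h3 KO library, beside a background of 10.9% of all 52542 regions with a peak in both controls. Among regions first open at 48 h the share without a peak was 22.5%, and among those open at 24 h it was 9.67%. In TIM4-negative KO cells 1131 of the 2363 (47.9%) had no peak, beside a background of 5.63%, and 12.5% and 3.96% of the other 2 classes. In titled Smad4 KO cells it was 1020 of 2244 (45.5%), beside a background of 10.4%, and 16.97% and 9.70%. No test was made of these shares, since regions of 1 library are not replicates. Without titled Smad4 KO library 2, which had more peaks than library 1, the count was 1587.

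The share without a peak also depended on how many peaks each library had. TIM4-positive KO libraries had 48775 and 53972 peaks and the Nr1h3 controls 65621 and 58395. With all lists reduced to the 48720 strongest peaks of each library, the shares were 23.7% in TIM4-positive KO cells (8.96% of the 48 h class, 3.54% of the 24 h class and 5.84% of all), 44.3% in TIM4-negative ones (10.8%, 4.02% and 7.33%) and 27.8% in titled Smad4 KO cells (6.28%, 4.54% and 5.78%). The RLM-closed class thus stayed highest in each knockout, but its share in TIM4-positive Nr1h3 and titled Smad4 KO cells was lower by over 1.5 times. Regions without a peak were found in each bin of PBS signal, and the rule used the same PBS peaks. Among RLM-closed regions with a PBS signal of 30 or more, 30.0% were without a peak in TIM4-positive, 49.6% in TIM4-negative and 34.9% in titled Smad4 KO cells. Regions first open at 48 h in the same bin were at 10.8%, 10.2% and 8.23%. Those open at 24 h were at 3.73%, 3.24% and 4.61%. In TIM4-positive and titled Smad4 KO cells the RLM-closed share was lower in the strongest bin than in the weakest, and in TIM4-negative cells it was not.

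**Figure D4:**
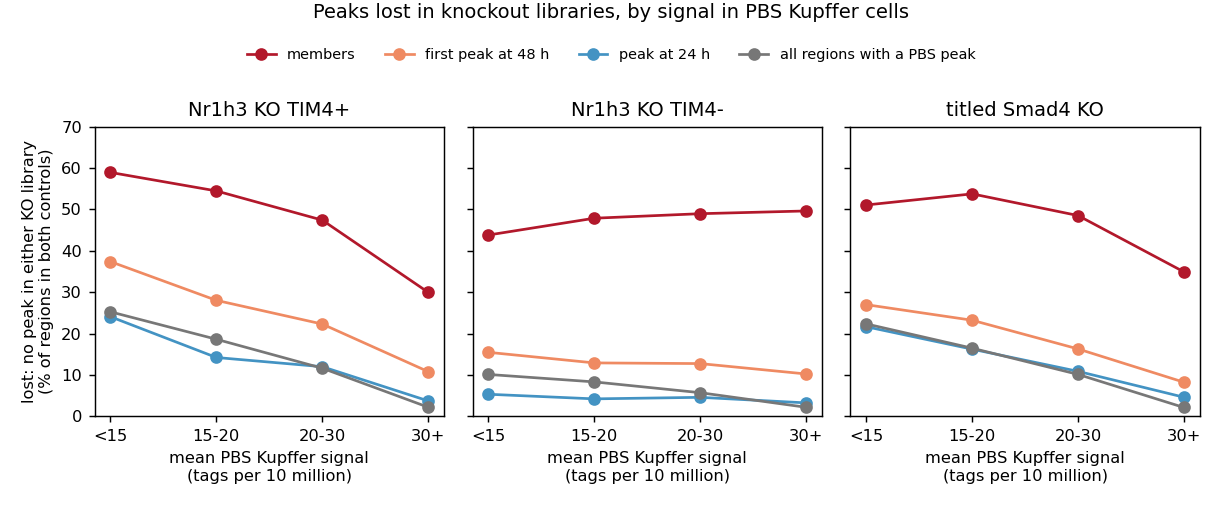
Share of regions with a peak in both control libraries that had none in either knockout library (percent), by mean PBS Kupffer signal, for 3 knockout pairs and 4 classes of region. RLM-closed regions are highest in each bin, and in the strongest bin they are at 30.0%, 49.6% and 34.9%.

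With the Smad4 libraries grouped by title, many RLM-closed regions were missing from both kinds of knockout. Of 1801 that had a peak in all 4 control libraries, 716 had none in the TIM4-positive Nr1h3 KO pair and 731 none in the titled Smad4 KO pair. These lists shared 461 regions, 64.4% of the first and 63.1% of the second. The shared part was 33.3% and 47.0% for the 48 h class, 32.7% and 34.5% for the 24 h class and 40.0% and 46.3% for all regions. The pairs lacked 396 and 281 of 2078 regions in the 48 h class and 266 and 252 of 3607 in the 24 h class. Of the 45489 of all regions that had a peak in all 4 controls, they lacked 3108 and 2687. A class that lacks more regions would share more by its counts alone, so these percentages do not rank the classes. The overlaps were not tested. Of the 1801, 829 were missing from the TIM4-negative pair (1687 of the 45489 of all regions). Missing from all 3 pairs were 390 (674 of the 45489), and 286 had a peak in all 6 knockout libraries (34345 of the 45489). Grouped by the strain labels, 546 had a peak in the 4 control libraries, and of these 77 were missing from the TIM4-positive Nr1h3 KO pair, 3 from the Smad4 pair and 1 from both. Over all 39285 regions with a peak in these 4 libraries, the same counts were 1012, 226 and 30. The most open region among the 390 was in Trpc4, a cation channel gene (chr3:54246472-54246775), with 97.6 and 90.1 in PBS cells and 39.9, 35.7, 25.4 and 30.1 in the 4 controls. Next were 2 regions in Marchf11, which encodes a ubiquitin ligase, and 2 in Tenm2. One of these, in Tenm2 (chr11:36941998-36942311), had 74.9 and 78.6 in PBS cells, 33.5, 29.0, 16.4 and 16.9 in the controls and no peak in BMDM. Over all 4025, 59 regions had a peak in each of the 14 outside libraries and 255 in none of them (14671 of all 155137 regions), so that for 255 the PBS libraries are the whole evidence of opening. Of the 1801 in all 4 controls, 1189 had no peak in any BMDM library, beside 3434 of the 45489 of all regions.

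Signal could be compared where all 4 libraries of a contrast had a peak, which held for 555 to 872 RLM-closed regions and leaves out those that lost their peak. The limma test was run over all such regions of the genome on log2(signal + 1), with each library centred on its median, and a call means an adjusted p (Benjamini-Hochberg) under 0.05. In TIM4-positive Nr1h3 KO cells 152 of 769 RLM-closed regions fell, 14 rose and 603 did not pass. Over all 40231 regions tested, 3.91% fell and 4.86% rose. The median log2 change of the RLM-closed regions was -0.28, against 0.08 for all. The class first open at 48 h was close to them: 14.8% of its 1423 tested regions fell, beside 19.8% of the RLM-closed ones, with a median of -0.18. In the 24 h class 7.95% fell, with a median of -0.01. Ryr2, which encodes a calcium release channel (chr13:12121795-12122100), had 97.7 and 84.5 in controls and 8.94 and 12.3 in TIM4-positive KO cells, a log2 change of -2.69 ± 0.25 (SE, adjusted p = 3.85e-23), and no peak in TIM4-negative cells. In Lepr, the leptin receptor gene (chr4:101742042-101742326), the signal was 94.3 and 96.4 against 12.1 and 19.8, a change of -2.24 ± 0.23 (SE). Regions in Nubpl, Trpc4, Klhl29 and Magi2 completed the 6 largest falls, between -2.54 and -2.20. The largest rise was at Pex13, a peroxisome gene (chr11:23658849-23659317), from 34.1 and 20.5 to 55.5 and 51.2, a change of 1.29 ± 0.23 (SE). It missed the threshold without centring, as did 5 more of the 6 largest rises, and the count of rises was then 1. Of the 22 identity-list regions tested, 2 fell: one at Timd4, 7.12 kb from the start (-1.20 ± 0.28, SE), and one at Clec4f (-0.71 ± 0.20, SE). The Timd4 call was lost without control library 1 or KO library 1, and the Clec4f call without either control or KO library 2. Without Nr1h3 control library 1 the calls numbered 90, without control library 2 also 90, and with all 6 Nr1h3 libraries in the fit 70.

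TIM4-negative Nr1h3 KO cells were tested against the same controls. Of 872 RLM-closed regions 332 fell, 5 rose and 535 did not pass, beside 6.68% of all regions that fell and 7.03% that rose. The median change was -0.63, against 0.08 for all regions, -0.38 for the 48 h class and -0.08 for the 24 h class. Falls were called for 38.1% of the RLM-closed regions, 26.7% of the 48 h class and 14.8% of the 24 h class. The region with the largest fall was in Slit3, a secreted guidance ligand gene (chr11:35297422-35297690), with 96.0 and 92.4 in controls and 8.84 and 8.72 in TIM4-negative cells (-3.68 ± 0.26, SE). A second Lepr region (chr4:101741468-101741731) went from 92.5 and 51.5 to 6.48 and 6.54 (-3.62 ± 0.29, SE), and a region at Rcc1 from 83.9 and 68.0 to 7.07 and 11.4 (-3.34 ± 0.27, SE). Of 13 identity-list regions 8 fell and 5 did not pass: all 3 at Clec4f (-1.09 to -1.74), both at C6 (-2.10 and -1.49), 2 at Pcolce2 and 1 at Marco. The Marco and both Pcolce2 calls were lost without centring and without TIM4-negative library 1, and the calls at Marco and at 1 of the Pcolce2 regions also without control library 2. The largest rise was at Zdhhc14, an acyltransferase gene, at 0.90 ± 0.23 (SE), which did not pass without control library 2 or TIM4-negative library 1. TIM4-negative libraries had a higher overall signal in peaks, and without centring, which removed a shift of 0.40 in log2, 185 RLM-closed regions fell and 32 rose, so the number of falls rests in part on the centring. Leaving out Nr1h3 control library 2 gave 224 calls. Peaks at regions nearest to monocyte genes numbered 89 and 95 of 249 in TIM4-negative cells, 84 and 75 in the controls and 52 and 63 in TIM4-positive KO cells, and at regions nearest to T and NK cell marker genes 37 and 33 of 84, against 23 and 22 and 16 and 18. TIM4-negative cells were also above the controls at hepatocyte (30 and 31 against 26 and 22), stellate (20 and 20 against 16 and 14) and dendritic cell markers (63 and 61 against 53 and 49). B cell and neutrophil markers overlapped the controls, and endothelial ones were lower (54 and 56 against 63 and 59). TIM4-negative libraries had more peaks in all, 68613 and 68757 against 65621 and 58395. The part of these lists in the result was not tested.

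TIM4-negative cells were also compared directly with TIM4-positive cells of the same Nr1h3 KO genotype. Of 567 RLM-closed regions tested 119 fell, none rose and 448 did not pass, beside 1.50% of all regions that fell and 0.607% that rose. At an unadjusted limma p under 0.05, 259 were lower and 2 higher. Over all 41838 regions tested it was 3451 and 2141, and over the 1408 of the 48 h class 309 and 14. The median change was -0.53, against -0.03 for all. Falls were called for 21.0% of the RLM-closed regions, 6.46% of the 48 h class and 3.04% of the 24 h class. The Cntnap2 region fell from 33.8 and 56.0 to 16.5 and 9.26 (-2.48 ± 0.29, SE), and a Dlgap2 region (chr8:14642472-14642762) from 33.2 and 46.4 to 9.43 and 13.1 (-2.48 ± 0.29, SE). Of 12 identity-list regions 4 fell, 2 at C6 and 1 each at Clec4f and Marco, and only the C6 promoter region (-1.79 ± 0.33, SE) was also called without centring. These directions are relative to the median region: the groups differed by 0.75 in log2 at the median, and without centring 96 RLM-closed regions rose and 42 fell. The count was 77 without TIM4-negative library 1, 71 without TIM4-positive library 1 and 76 without TIM4-positive library 2.

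In titled Smad4 KO cells 101 of 568 RLM-closed regions fell against the titled controls, 4 rose and 463 did not pass, beside 1.50% of all regions that fell and 1.57% that rose. The median change was -0.30, against 0.07 for all. Falls were called for 17.8% of the RLM-closed regions, 6.85% of the 48 h class and 3.38% of the 24 h class. A region at Klhl29 (chr12:5119733-5120078) fell most, from 49.1 and 65.1 to 8.37 and 9.92 (-2.17 ± 0.26, SE), followed by the Ryr2 region, from 72.1 and 88.0 to 10.6 and 19.2 (-2.06 ± 0.23, SE). A region near Ldoc1 (chrX:61680412-61680809) fell from 46.0 and 50.8 to 7.81 and 11.8 (-1.88 ± 0.27, SE), but had 60, 57.3, 98.4 and 74.1 in the 4 Nr1h3 KO libraries beside 90.2 and 70.6 in the Nr1h3 controls. At Agap1 (chr1:89450144-89450422) the signal rose, from 29.1 and 30.6 to 48.6 and 63.3 (1.21 ± 0.21, SE), though not without centring. Of 13 identity-list regions 3 fell: the Timd4 promoter region (-0.85 ± 0.24, SE), 1 at C6 and 1 at Xdh. The first 2 of these calls were lost without centring. Leaving out single libraries ended the C6 call with any of the 4, the Timd4 call with titled KO library 1 or either control, and the Xdh call with either control. Regions nearest to monocyte genes had a peak in 53 and 70 of 249 cases in titled Smad4 KO and 78 and 92 in titled control libraries, and the part of this in the result was not tested. The calls numbered 52 without titled control library 1 and 42 without titled control library 2. Over the 357 RLM-closed regions tested in both knockouts, the changes in TIM4-positive Nr1h3 KO and titled Smad4 KO cells had a correlation across regions of 0.56, given as a description since regions are not independent replicates, and 215 (60.2%) were lower in both. Neither value was computed over other regions, so they cannot be read as a trait of this class. Of the RLM-closed regions tested in each contrast 72.4% and 70.4% were lower, beside 40.9% and 40.7% of all regions.

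**Figure D5:**
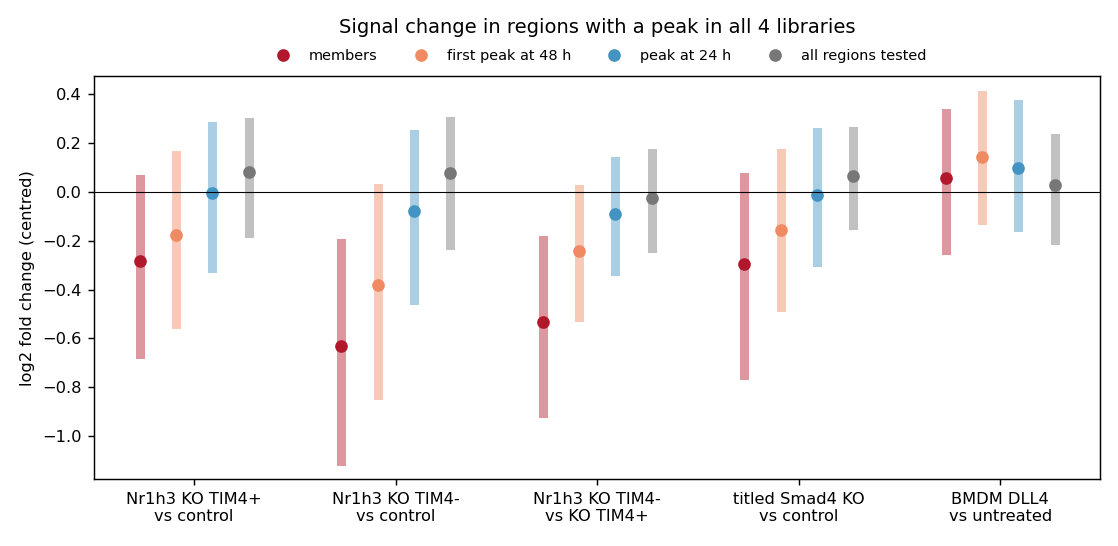
Median (points) and interquartile range (bars) of the centred log2 fold change in 5 contrasts, for RLM-closed regions, those first open at 48 h, those open at 24 h and all regions tested, each with a peak in all 4 libraries. RLM-closed medians run from -0.63 to -0.28 in the 4 Kupffer contrasts (the direction in the third turns without centring) and are at 0.06 in the DLL4 contrast.

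Few RLM-closed regions changed with DLL4 in BMDM. The share with a peak was 24.8% ± 0.39 (SD, n = 2) with DLL4 and 21.9% ± 6.57 (SD, n = 2) without (exact permutation p = 1). Of 555 RLM-closed regions tested 12 rose, 4 fell and 539 did not pass by limma, or 2.16% and 0.721%, beside 2.36% of all regions that rose and 1.52% that fell. The largest rise was near Tmprss5, a serine protease gene (chr9:49119870-49120365), from 11.1 and 7.01 to 27.6 and 23.9 (1.40 ± 0.33, SE). A Timd4 region 9.31 kb inside the gene (chr11:46819946-46820265) had 29.5 and 23.6 in untreated and 55.2 and 80.7 in DLL4-treated BMDM (1.27 ± 0.23, SE, adjusted p = 4.83e-05 by limma). This was above both PBS Kupffer values of 34.1 and 25.9. The other 7 Timd4 regions tested did not pass, and the promoter region's change was 0.03 ± 0.20 (SE). The largest fall was at Rdh10, a retinol dehydrogenase gene, from 43.6 and 32.4 to 13.8 and 14.4 (-1.39 ± 0.29, SE). All calls of this contrast at RLM-closed regions, Timd4 included, were lost without untreated library 1, which left 1 untreated library. The change at the Timd4 region was then 1.34. The Timd4 call was also lost without DLL4 library 2 (limma adjusted p = 0.0588). The calls numbered 9 without untreated library 2 and 5 without either DLL4 library.

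Other gene lists took unequal parts in the RLM-closed set, read against 29.4% of Kupffer-gained regions over all genes. Of 22 efferocytosis and scavenger receptor genes, 9 held 34 RLM-closed regions, 43.0% of the list's 79 Kupffer-gained regions, and 14 of the 34 were at Timd4. All 14 Kupffer-gained regions at Timd4 were RLM-closed, so this 1 gene raises the list's share. Stab2, a hyaluronan scavenger receptor also used as an endothelial marker, had 5, Elmo1 had 4 and Mertk had 2. Lysosome genes had 3 of 31 (Mitf, Tfec and Ctsb), macrophage transcription factor genes 6 of 40, LXR target genes 8 of 39 and monocyte genes 0 of 10. TGF-beta and BMP pathway genes had 7 of 25 and Notch pathway genes 8 of 25, of which 4 were at Maml3, a Notch coactivator gene. These counts are small and were not tested. Abca1, the cholesterol exporter and LXR target, had 2 RLM-closed regions. At 1 of them, inside the gene (chr4:53111780-53112123), the signal was 45.1 and 37.0 in Nr1h3 controls and 21.2 and 26.8 in titled Smad4 controls. It had no peak in the 6 knockout or 4 BMDM libraries. The other Abca1 region kept a peak in all 4 Nr1h3 KO libraries and had none in the titled Smad4 KO or BMDM libraries. At Hes1, a classic Notch target, the RLM-closed region (chr16:30059354-30059637) had 76.3 and 68.0 in Nr1h3 controls and 60 to 87.7 in the 4 Nr1h3 KO libraries. It had 49.7 and 49.2 in titled Smad4 controls, and 30.7 and no peak in the titled Smad4 KO pair. A Tgfb2 region (chr1:186677663-186677949) fell in titled Smad4 KO cells from 24.8 and 26.2 to 7.26 and 7.44 (-1.33). Marker genes of other liver and blood cells had few Kupffer-gained regions of either kind. RLM-closed regions were 1 of 5 at hepatocyte, 1 of 4 at stellate, 3 of 8 at B cell, 3 of 10 at dendritic cell and 7 of 26 at endothelial markers (5 at Stab2), and 0 of 2 each at T and NK cell and at neutrophil markers.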

How the data were processed

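ATAC-seq was measured in 23 mouse libraries in 11 groups taken from titles and strain labels. The submitters' processing notes name Bowtie2, HOMER and build mm10, with no versions. Signal values are normalised tag counts that, per the file headers, HOMER scaled to 10000000 tags. Score values are findPeaks scores, per the file headers. Per the file headers, peaks were called in each library alone (size 200 bp, false discovery rate 0.001, 4-fold over the local 10 kb, local p 0.0001), so weak regions can miss the call in shallow or noisy libraries.

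Peaks overlapping by 1 bp were merged (Python 3.11.15, pandas 2.3.3). A region's value is its strongest peak. Contrasts used limma 3.58.1 (R 4.3.3) with a mean-variance trend on log2(signal + 1), centred on library medians, over regions with a peak in all libraries compared. It was tested on simulated data. Shares were compared over libraries with exact permutation tests (scipy 1.17.1). Regions were assigned to the nearest RefSeq protein-coding gene body within 50 kb. The named ones are the 15 genes with most members, the identity-list genes, the 12 most open members with a gene and the 6 largest called changes in each direction per contrast, with list genes and further examples picked after their values were seen. The member rule and the 17 gene lists were chosen with earlier results of these data known. Libraries with the same replicate number were not treated as pairs.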

Additional observations from a re-analysis of the deposited data

How the results depend on the processing

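Peaks merged at 100 bp overlap, a findPeaks score of at least 15, equal-length lists and a 1 kb exclusion zone left 3277 to 4433 members. Leaving out 1 rule library gave 4060 to 6504. The numbers called by limma changed as follows. TIM4-positive Nr1h3 KO against control had 70 calls with all 6 Nr1h3 libraries in the fit and 90 to 170 with 1 library left out (166 in the report). TIM4-negative against control had 217 without centring, 175 with a mean signal of at least 20 and 224 to 346 with 1 library left out (337). TIM4-negative against TIM4-positive had 138 without centring, mostly higher, 63 with quantile normalisation, 48 with a mean signal of at least 20 and 71 to 91 with 1 library left out (119). Titled Smad4 KO had 42 to 136 with 1 library left out (105). DLL4 had 6 with quantile normalisation, 8 with a mean signal of at least 20, and 0 to 9 with 1 library left out (16); without DLL4 library 2 it was 5, with 2 higher and 3 lower. Regions without a peak numbered 647 in TIM4-positive KO cells with lists of equal length, and with 1 library left out 1196 to 1562 (TIM4-positive), 1277 to 1532 (TIM4-negative) and 1109 to 1587 (titled Smad4 KO). With no knockout peak allowed within 1 kb, a setting chosen after seeing the data, they numbered 913, 1001 and 865. The gap in share between TIM4-negative and TIM4-positive KO cells turned to -12.4 points with lists of equal length (4.84 in the report). The gap between controls and BMDM was 24.4 points with the Smad4 controls taken by the strain labels and 46.0 with the Nr1h3 controls alone, both chosen after seeing the data. It was 42.6 to 46.2 points with 1 library left out, where the smallest possible exact permutation p is 0.0571. A gene body lay within 10 kb of 62.4% of members. The cause of these changes was not tested. Of 577 alternative values for 64 named regions, 469 stayed past the threshold, 108 missed it (78 with 1 library left out) and 0 changed sign. With the replicate block the limma calls were 171, 340, 123 and 15 in the Nr1h3 and DLL4 contrasts. The deviations of same-numbered libraries correlated between -0.04 and 0.06. With 2 libraries a group this cannot show whether same-numbered libraries are related, and the labels do not say. No paired analysis was possible for the Smad4 contrast because its titles share no replicate numbers. A planned count test on tags recovered from the signals was not run, because the signals did not pass the check that nearly all give whole tags. Each group of these contrasts had 2 libraries. The peak callers' limit was 8 to 11 tags in a library, before scaling. Libraries held 10431396 to 18358419 tags, so the signal at this limit differed between libraries.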
